A study of Homo sapiens with 4 samples.

Results

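The HOX genes of humans lie in 4 clusters, and their lamin B1 enrichment is described here in 2 prostate cancer cell lines, LNCaP and VCaP. The members are the 40 kb bins of the enrichment tables that overlap the 4 clusters of hg19 or the 1 Mb on each side of them. There are 215 such bins of the 71569 with a value in both lines, and 15 of them overlap a cluster itself. The HOXA bins were taken over chr7:27130000-27250000, the HOXB bins over chr17:46605000-46705000 for HOXB1 to HOXB9, the HOXC bins over chr12:54330000-54450000 and the HOXD bins over chr2:176955000-177056000. These intervals are in hg19 and hold 37 listed genes: 10 of HOXA and 9 each of HOXB, HOXC and HOXD.

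HOX genes encode homeodomain transcription factors that give cells their position along the body axis. Within a cluster the genes stand in the order in which they are switched on from head to tail, and in cells that do not use a HOX cluster it is typically covered by Polycomb proteins and their histone mark. Lamin B1 is one of the filament proteins that build the lamina, which lines the inside of the nuclear envelope. Chromatin that touches the lamina is mostly poor in genes and weakly transcribed, so gene-rich, regulated loci such as the HOX clusters are a contrast to its usual content.

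Each line had 1 lamin B1 chromatin immunoprecipitation (ChIP) library and 1 input library made without antibody, so the 4 libraries form 4 groups of 1. LNCaP is an established line labelled prostate adenocarcinoma, grown in RPMI with serum. VCaP is an established line labelled bone metastatic prostate cancer, grown in DMEM F12 with serum. Formaldehyde fixed the cells of each line, and the labels name no drug for either. The line, its medium and its library pair cannot be told apart, and no difference below has a replicate check or a test.

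A value is the ChIP signal of a 40 kb bin relative to input on a log2 scale, and the authors' hidden Markov model gives each bin a state, of which the more enriched is called associated here. Each deposited value is an average over its own bin and the 2 bins before it. Noise is the scatter between bins 3 apart, which share no averaged bin. Its SD was 0.15 in LNCaP, 0.23 in VCaP and 0.20 for the VCaP minus LNCaP difference of a bin. Real changes over that distance enter it too, so it is not technical scatter alone. A difference over 2 noise SDs, 0.40, is called beyond noise. Over the whole genome the median was 0.06 in LNCaP and 0.19 in VCaP. Depth is unknown, so no counting error is given.

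No cluster bin was associated with the lamina in LNCaP, whereas most were in VCaP. In LNCaP 0 of 15 cluster bins were in the associated state, against 37.8% of all bins of the genome. On chromosomes 7, 17, 12 and 2 the LNCaP share was lower than that, at 22.7% to 29.9%. In VCaP 10 of 15 were (66.7%), against 44.4% of all bins. The VCaP share was 75.1% on chromosome 17 and 37.3% to 44.0% on chromosomes 7, 12 and 2. The clusters split in VCaP: all 3 HOXB bins, all 4 HOXC bins and 3 of 4 HOXD bins were associated, and 0 of 4 HOXA bins were. The median over the 15 cluster bins was -0.13 in LNCaP and 0.27 in VCaP. Enrichment was over 0 in 1 of the 15 bins in LNCaP and in 12 in VCaP, where 56.8% and 66.9% of all bins were.

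The differences beyond noise all went in 1 direction, and 13 of the 15 cluster bins were higher in VCaP by any amount. VCaP was beyond noise above LNCaP in 9 of the 15 cluster bins (60.0%), against 27.4% of all bins, and LNCaP was above VCaP in 0, against 14.0% of all bins. Associated in VCaP alone were 10 cluster bins, a class that holds 23.8% of all bins. The other 5 were associated in neither line, as were 38.4% of all bins. No cluster bin was associated in LNCaP alone (17.2% of all bins) or in both lines (20.6%). Over the 4 chromosomes of the clusters these shares were 4.36% to 14.5% and 12.2% to 18.3%. LNCaP was beyond noise above VCaP in 3.13% to 13.3% of their bins. On chromosome 17, that of HOXB, 56.8% of bins were associated in VCaP alone and 60.1% were beyond noise above LNCaP. On chromosomes 7, 12 and 2 these shares were 24.6% to 28.7% and 27.3% to 33.3%. The 15 bins are neighbours on 4 chromosomes and are not independent.

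**Figure D1:**
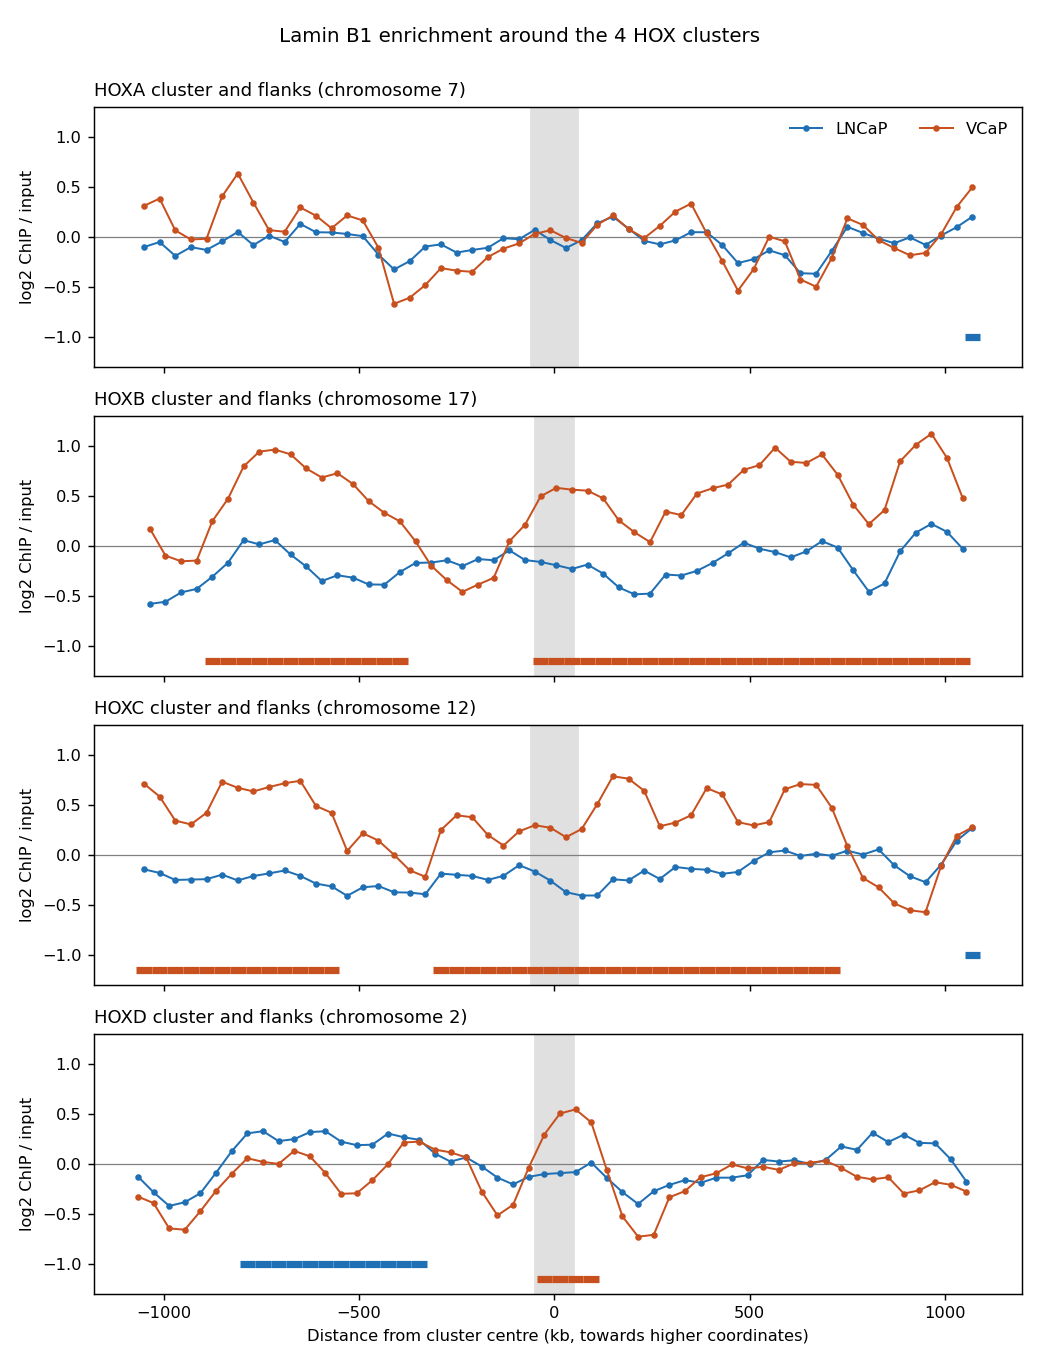
Log2 enrichment of lamin B1 ChIP over input (vertical axis) in 40 kb bins by distance from the centre of each HOX cluster in kb (horizontal axis), in LNCaP (blue) and VCaP (orange), 1 library pair each. Grey marks the cluster, and thick bars at the bottom mark associated bins: in VCaP they cover HOXB, HOXC and most of HOXD, and in LNCaP they cover none of the clusters.

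The flanks did not all follow. Of the 200 flank bins, 14 were associated in LNCaP (7%) and 74 in VCaP (37.0%). The share was below that of the genome in both lines. Over all bins of chromosomes 7, 17, 12 and 2 the LNCaP share was 22.7% to 29.9%. VCaP was beyond noise above LNCaP in 80 flank bins (40%), against 27.4% of all bins, and below it in 7, against 14.0%. Over the bins of these chromosomes the share below LNCaP was 3.13% to 13.3%. Of the 80, 40 lay beside HOXB, 34 beside HOXC, 5 beside HOXA and 1 beside HOXD. On chromosome 17, that of HOXB, VCaP was beyond noise above LNCaP in 60.1% of all bins. No flank bin was associated in both lines, against 20.6% of all bins and 12.2% to 18.3% on these chromosomes. Of the 74 flank bins associated in VCaP, 38 lay beside HOXB, 35 beside HOXC, 1 beside HOXD and 0 beside HOXA.

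HOXB had the largest difference between the lines in the deposited values, but not relative to its chromosome, where HOXC and HOXD exceeded it by less than noise. The cluster runs from HOXB1, which patterns a segment of the hindbrain, at the lower coordinate to HOXB9, a gene of the trunk, at the higher one, with the blood stem cell regulator HOXB4 between them. In LNCaP its 3 bins, from 46600001 to 46720000, had values of -0.16, -0.19 and -0.23. In VCaP they had 0.50, 0.58 and 0.56. The lines did not overlap, and each bin differed by more than noise. The cluster mean was -0.19 in LNCaP. In VCaP it was 0.55, which is 0.74 higher (noise SD of the difference 0.20).

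Chromosome 17 as a whole was higher in VCaP, which bears on HOXB. The median difference over its bins was 0.51, and 75.1% of its bins were associated in VCaP, against 22.7% in LNCaP. HOXB thus lay 0.23 above the chromosome's own difference, little more than the noise SD of its cluster difference. HOXC lay 0.38 and HOXD 0.30 above theirs. The gaps between these values were smaller than the noise SD of each cluster difference. Within VCaP, the HOXB bins ranked from percentile 51.3 to 59.5 of chromosome 17, near the middle of that chromosome. Within LNCaP they ranked from percentile 24.6 to 33.3. The part of the whole chromosome in the HOXB difference was not tested.

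HOXB lay in the first bins of a long VCaP domain, as the states give it. This domain ran from 46600001 to 49000000, 2400 kb, and its first bin was the first bin of the cluster. In single bins, with the average undone, VCaP was already at 0.41 and 0.32 in the bins from 46520001 and 46560001, so the rise began below the cluster. All 25 bins of the upper flank were associated in VCaP, with a mean of 0.60. Below the cluster lay a trough that reached -0.46 in VCaP at 46400001 to 46440000, where LNCaP had -0.20. Beyond this trough another VCaP domain ended 325 kb from the cluster. In the lower flank 13 of 25 bins were associated in VCaP. In LNCaP 0 of the 53 bins of the cluster and its flanks were associated, and the nearest LNCaP domain began 2855 kb above the cluster. By gene order, SKAP1, which encodes an adaptor protein of T cells, is the first protein-coding gene below HOXB1.

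HOXC was the lowest cluster in LNCaP and associated throughout in VCaP. It runs from HOXC13, a gene of hair and nail, at the lower coordinate to HOXC4 at the higher one. It also holds HOXC6, known for raised expression in prostate cancer, and the long noncoding RNA gene HOTAIR. In LNCaP its 4 bins from 54320001 to 54480000 had -0.17, -0.26, -0.37 and -0.41. In VCaP they had 0.30, 0.27, 0.18 and 0.26. Every bin differed by more than noise, by 0.46 to 0.67. The deposited LNCaP values fell from the HOXC13 end towards the HOXC4 end, down to percentile 7.97 of the genome. With the average undone, the last LNCaP bin, at -0.37, lay above the one before it, at -0.51. The VCaP values lay closer together than the noise SD of a single bin. They ranked from percentile 48.6 to 59.1 of the genome in VCaP, near its middle.

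HOXC differed between the lines by more than its chromosome did. The cluster mean was -0.30 in LNCaP. In VCaP it was 0.25, higher by 0.55 (noise SD 0.17). Chromosome 12 had a median difference of 0.17, so HOXC lay 0.38 above it, where the noise SD of the cluster difference was 0.17. With each line's own chromosome median subtracted first, the difference was 0.33, just under 2 noise SDs. Its flanks shared the difference: the lower flank was higher in VCaP in 25 of 25 bins with a mean difference of 0.61, and the upper flank in 19 of 25 with a mean of 0.36. The VCaP domain over HOXC ran from 54080001 to 55120000, 1040 kb, and held the cluster in its lower part. The nearest protein-coding genes of other families are CALCOCO1 below HOXC13 and SMUG1, a DNA repair enzyme, above HOXC4.

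HOXD was the one cluster that lay beyond 2 noise SDs from the mean of both its flanks, and it did so in VCaP. It runs from HOXD13, which patterns digits and the urogenital tract, at the lower coordinate to HOXD1 at the higher one. In LNCaP its 4 bins from 176920001 to 177080000 had -0.13, -0.10, -0.09 and -0.08. In VCaP they had -0.04, 0.29, 0.50 and 0.54. The last pair differed by more than noise, by 0.60 and 0.63, and the second, at 0.3952, lay just under the limit of 0.3965. The first bin, of which 5 kb lie in the cluster interval, differed by 0.09. The deposited VCaP values rose from the HOXD13 end towards the HOXD1 end. With the average undone, the last bin, at 0.23, lay below the middle bins, at 0.58 and 0.81.

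The mean of HOXD in VCaP was 0.33, and its lower and upper flanks had means of -0.16 and -0.17. The cluster thus lay 0.49 above its flanks, with a noise SD of 0.20. In LNCaP the cluster mean was -0.10 and the flank mean 0.02, a difference of -0.12 within the noise SD of 0.14. With both flanks pooled, the 3 other clusters differed from them by at most 0.13 in either line, less than the noise SD of each difference. Their values were 0.03 in LNCaP and 0.02 in VCaP for HOXA, -0.0030 and 0.12 for HOXB, and -0.13 and -0.06 for HOXC. Other settings took some past 1 noise SD, but none past 2. HOXC in LNCaP was -0.22 with the average undone and with flanks of 2 Mb (noise SD 0.14). HOXB in VCaP was 0.26 with flanks of 0.5 Mb (noise SD 0.23). Against 1 flank alone, HOXB in VCaP lay 0.28 above its lower flank (noise SD 0.24), and HOXC in LNCaP lay at -0.21 relative to its upper flank (noise SD 0.14). Chromosome 2 had a median difference of 0.13 between the lines, and HOXD lay 0.30 above it. That is under 2 noise SDs of the cluster difference (noise SD 0.17).

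**Figure D2:**
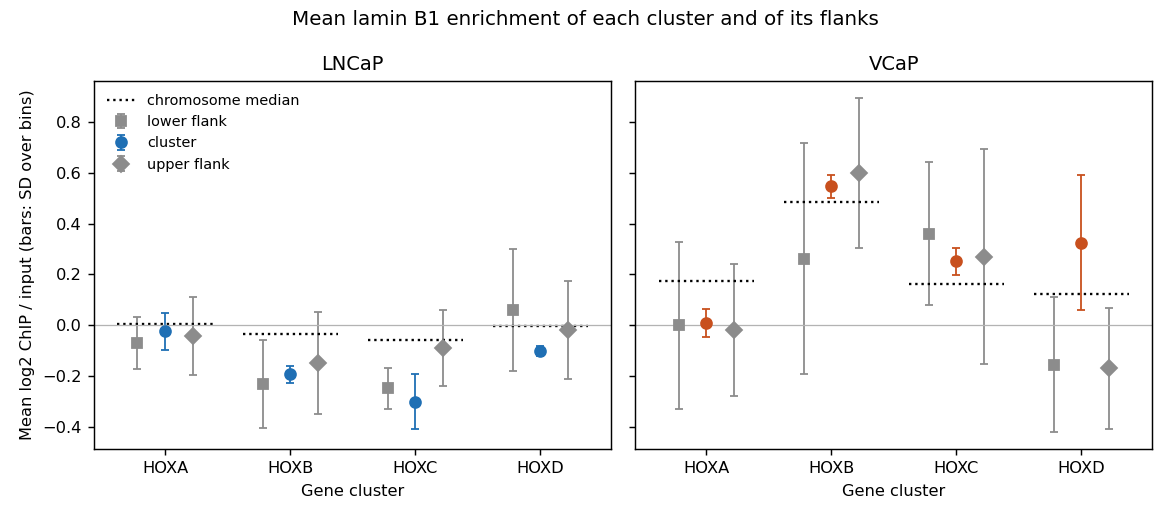
Mean log2 enrichment (vertical axis) of each HOX cluster (coloured circles), its lower flank (squares) and its upper flank (diamonds) in LNCaP and VCaP, with bars for the SD over bins and dotted lines for the median of the chromosome. In VCaP the HOXD cluster, at 0.33, lies above flanks at -0.16 and -0.17, HOXA and HOXC lie near theirs, and HOXB lies 0.28 above its lower flank.

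The associated domain over HOXD was short. In VCaP it ran from 176960001 to 177120000, 160 kb or 4 bins, and 7.5% of the 1200 VCaP domains were of that length or shorter. The next VCaP domains were 1275 kb below and 6144 kb above the cluster. On both sides enrichment dropped steeply, to -0.52 at 176840001 to 176880000 and to -0.73 at 177200001 to 177240000. LNCaP was also below 0 in the same places, but less so, with -0.14 and -0.40. In LNCaP the lower flank held a domain of its own from 176200001 to 176680000, 480 kb, ending 275 kb from the cluster, where VCaP had 0 associated bins. The 1 Mb flanks of HOXD therefore differed in the other direction from the cluster, by -0.22 below and -0.15 above. This depended on their width: the difference over the cluster with its flanks was -0.14 with 1 Mb and 0.0062 with 2 Mb. By gene order, EVX2, a homeobox gene, and LNPK follow below HOXD13, and MTX2, a mitochondrial import protein, follows above HOXD1.

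Undoing the average of 3 bins showed the HOXD peak in single bins. The undone VCaP values of the 4 cluster bins were 0.10, 0.58, 0.81 and 0.23, and those of LNCaP were -0.14, -0.22, 0.07 and -0.11. The noise SD of an undone bin was 0.27 in VCaP and 0.18 in LNCaP. The VCaP peak at 177000001 to 177040000 lay between -1.01 at 176800001 to 176840000 and -1.16 at 177160001 to 177200000. VCaP was higher by more than 2 noise SDs of an undone difference, 0.50, in 2 of 4 HOXD, 3 of 3 HOXB and 2 of 4 HOXC bins. Of the 50 flank bins of each cluster, VCaP was higher by that much in 35 beside HOXB and 25 beside HOXC. It was so in 4 beside HOXA and 0 beside HOXD. LNCaP was higher by that much in 0, 2, 1 and 9 flank bins in that order. The share over all bins of the genome is not given for undone values. HOXC had undone values in VCaP of 0.43, 0.12, -0.04 and 0.68, so its middle bins were lower than its ends. In LNCaP the same bins had -0.27, -0.35, -0.51 and -0.37, with the lowest value in the same bin.

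**Figure D3:**
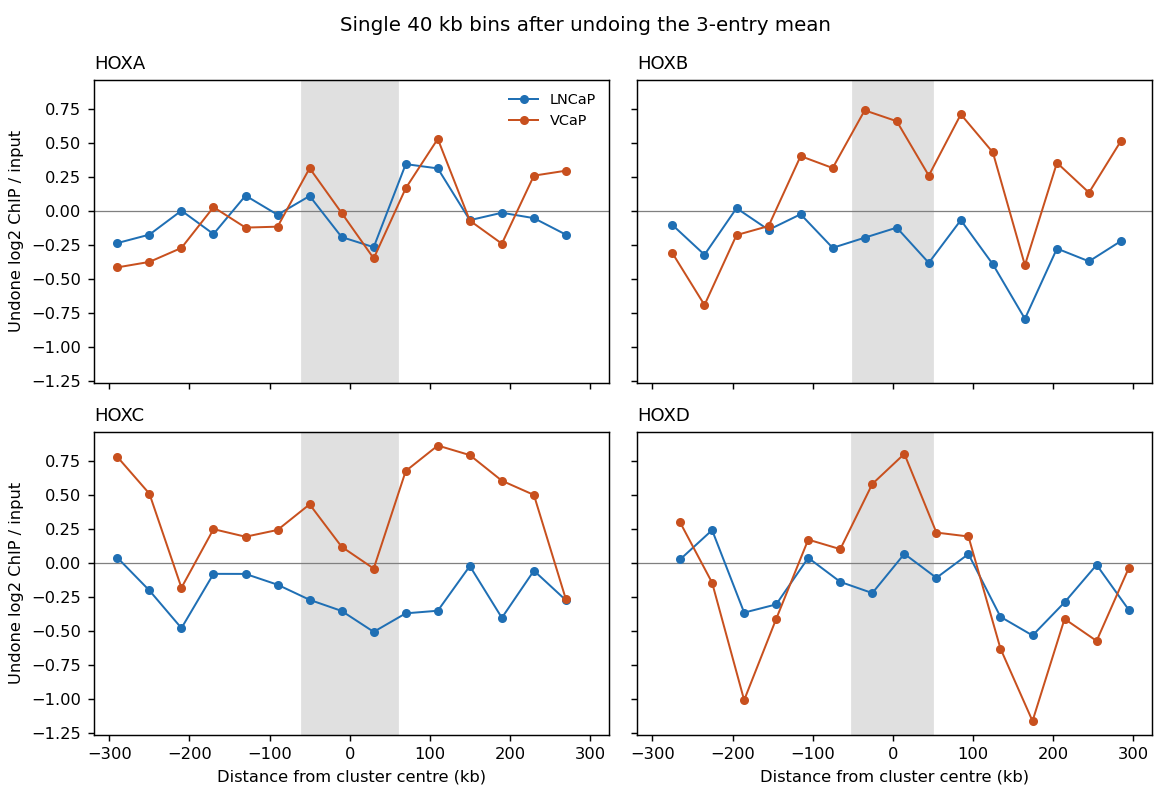
Log2 enrichment of single 40 kb bins after undoing the 3-bin average (vertical axis) against distance from the centre of each HOX cluster in kb (horizontal axis), in LNCaP (blue) and VCaP (orange), with the cluster in grey. HOXD peaks at 0.81 in VCaP, and in HOXA both lines fall to their lowest cluster value in the same bin.

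HOXA was the cluster with the least difference between the lines. It runs from HOXA2, a gene of the hindbrain and jaw arches, at the lower coordinate through the lung gene HOXA5, the leukaemia-linked HOXA9 and the uterine gene HOXA10 to HOXA13, a gene of digits and the urogenital tract. In LNCaP its 4 bins from 27120001 to 27280000 had 0.07, -0.03, -0.11 and -0.03. In VCaP they had 0.03, 0.07, -0.01 and -0.06. The lines overlapped, and 0 of 4 bins differed by more than noise. The cluster mean was -0.03 in LNCaP. It was 0.01 in VCaP, and the difference of 0.03 lay within its noise SD of 0.17. Chromosome 7 had a median difference of 0.11.

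The undone values of HOXA were above 0 at both ends of the cluster and below 0 in the middle in both lines. In LNCaP they were 0.11, -0.19, -0.27 and 0.35, and in VCaP 0.32, -0.01, -0.35 and 0.17. Both lines were lowest in the bin from 27200001 to 27240000, on the HOXA13 side. The wider profile was also shared: over the 54 bins of HOXA and its flanks the deposited values of the lines correlated with a Pearson r of 0.73. The bins are averaged neighbours of 1 library pair per line, so this is a description. The same r was 0.57 for HOXB over 53 bins, 0.06 for HOXC and 0.49 for HOXD, each over 54 bins. VCaP swung further than LNCaP around HOXA, from -0.67 to 0.64 in the lower flank, against -0.32 to 0.13 in LNCaP. The nearest VCaP domain began 2630 kb above HOXA, and the nearest LNCaP domain 990 kb above it, at 28240001.

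**Figure D4:**
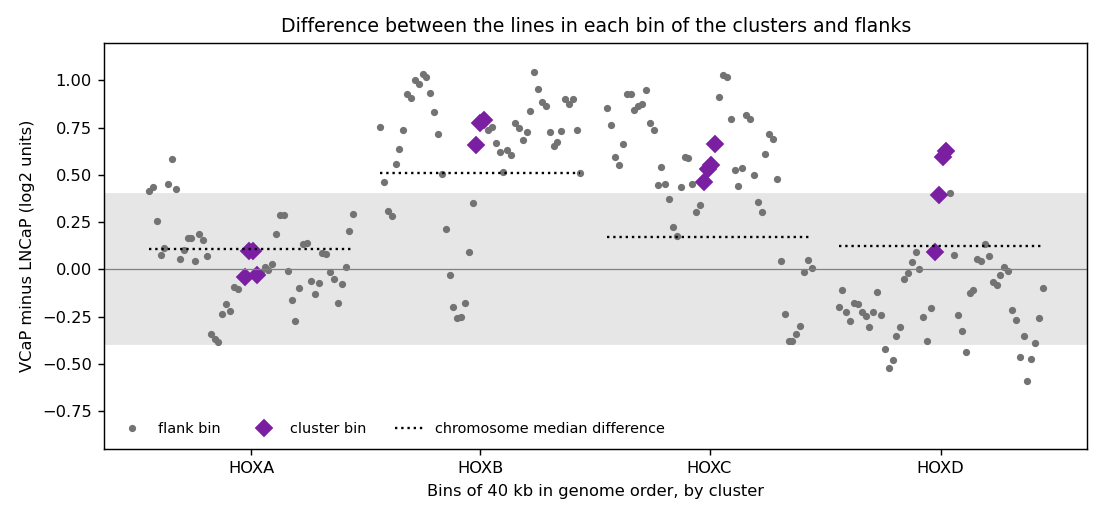
VCaP minus LNCaP difference in log2 enrichment (vertical axis) in every 40 kb bin of the HOX clusters (purple) and their flanks (grey), in genome order (horizontal axis), with the range of 2 noise SDs shaded and the median difference of each chromosome dotted. All HOXB and HOXC cluster bins lie above the shaded range, all HOXA cluster bins lie inside it, and the HOXD cluster bins rise above flanks that are mostly below 0.

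The order of the clusters was not the same in the lines. In VCaP it was HOXB (0.55), HOXD (0.33), HOXC (0.25) and HOXA (0.01). In LNCaP it was HOXA (-0.03), HOXD (-0.10), HOXB (-0.19) and HOXC (-0.30). A cluster mean had a noise SD of 0.13 to 0.15 in LNCaP and 0.20 to 0.23 in VCaP, and neighbours in either order differed by less than 2 such SDs. HOXA was thus the highest cluster of LNCaP and the lowest of VCaP.

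Copies of the same ancestral gene sat in clusters of different state. The 37 genes fall into 13 paralogue groups, numbered from the head end. Group 9, for example, has HOXA9, HOXB9, HOXC9 and HOXD9. The 37 listed genes are not every gene of the clusters, and the counts here hold for the list. Of the 13 groups, 10 have a listed member in HOXA, which was associated in neither line, and another in HOXB or HOXC, which were associated in VCaP alone. Single genes were not placed in bins, since the gene table used here is of another build, GRCh38, and served for gene order only.

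MicroRNA genes lie inside or beside the clusters, and mature sequences of some are printed as examples. Sequences this short do not measure how alike the clusters are. Those printed belong to the miR-10 and miR-196 families, which are known to repress HOX transcripts. The mature forms below are from RefSeq (GRCh38.p14), written 5′ to 3′ with the seed, bases 2 to 8, in capitals. In the files' build these genes were not placed in single bins.
miR-196a-5p: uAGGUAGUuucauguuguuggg
miR-196b-5p: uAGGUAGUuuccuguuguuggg
miR-10a-5p: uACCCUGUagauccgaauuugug

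miR-196a-5p has the same mature sequence from MIR196A2, between HOXC10 and HOXC9 on the plus strand of chromosome 12 (chr12:53991762-53991783), and from MIR196A1, above HOXB9 on the minus strand of chromosome 17 (chr17:48632532-48632553). miR-196b-5p comes from MIR196B between HOXA9 and HOXA10 on the minus strand of chromosome 7 (chr7:27169528-27169549). It shares the seed of miR-196a-5p and differs from it by A12C, counted from 1 at the 5′ end of miR-196a-5p. MIR10A lies within HOXB3, between HOXB4 and HOXB5 (chr17:48579904-48579926, minus strand), and miR-10a-5p has another seed. These 4 positions are in GRCh38.p14. The miR-196 seed is thus encoded in HOXA, which was associated in neither line, and in HOXC, which was associated in VCaP.

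Promoter sequence was compared as a feature the choice of bins did not use. Of the 37 genes, 20 had a promoter in RefSeq's table, of which 9 were of HOXA, 1 of HOXB, 2 of HOXC and 8 of HOXD. In the 250 bases before the start they held a median of 20.5 CpG dinucleotides, against 11.0 over 27303 promoters. The ratio of observed to expected CpG had a median of 0.89, against 0.56, and GC content a median of 59.0%, against 58.0%. HOXC4 and HOXC5 share 1 window. GC over 55% together with a ratio over 0.65, a common sign of a CpG island, was found in 10 of the 20 (50.0%), against 39.5% of all promoters. The median was 20 CpG in HOXA, which was associated in neither line. Among the clusters associated in VCaP it was 22 in HOXD, 14 in HOXC and 7 in HOXB, the last 2 from 1 window each. A link between CpG content and state was not tested.

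The promoters below belong to genes at the ends of the clusters with the largest and the smallest difference between the lines in the deposited values, HOXB and HOXA. The entries are from RefSeq (GRCh38.p14), all on the minus strand, written 5′ to 3′ in the gene's direction with each CG in capitals. HOXB9, at the other end of HOXB, is named only. HOXB1 (chr17:48531012-48531261) holds 7 CpG, HOXA2 (chr7:27102684-27102933) holds 8, and HOXA13 (chr7:27200092-27200341) holds 40, the most among the 20 windows.
HOXB1: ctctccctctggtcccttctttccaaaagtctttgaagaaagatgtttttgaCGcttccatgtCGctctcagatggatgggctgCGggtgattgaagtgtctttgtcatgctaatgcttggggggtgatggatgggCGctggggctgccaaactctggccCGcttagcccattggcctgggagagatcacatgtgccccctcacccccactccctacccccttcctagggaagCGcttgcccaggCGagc
HOXA2: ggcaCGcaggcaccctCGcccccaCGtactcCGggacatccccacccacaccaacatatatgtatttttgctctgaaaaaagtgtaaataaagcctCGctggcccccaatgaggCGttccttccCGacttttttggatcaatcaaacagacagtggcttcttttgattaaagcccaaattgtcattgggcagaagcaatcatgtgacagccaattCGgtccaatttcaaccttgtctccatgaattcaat
HOXA13: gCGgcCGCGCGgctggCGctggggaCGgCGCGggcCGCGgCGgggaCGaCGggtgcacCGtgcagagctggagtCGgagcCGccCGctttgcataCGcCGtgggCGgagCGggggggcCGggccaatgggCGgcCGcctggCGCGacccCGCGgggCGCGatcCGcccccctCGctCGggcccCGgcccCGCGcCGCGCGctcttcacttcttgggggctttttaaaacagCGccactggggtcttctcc

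In CpG count the windows at the ends of HOXA thus differ more from each other than the HOXA2 window does from that of HOXB1. A bin is far longer than a promoter, so the enrichment of a bin is not that of a promoter inside it.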

How the data were processed

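The deposited values are log2 enrichment of lamin B1 ChIP over input of the same line, made by the authors, in hg19 per the submitters' processing notes, which also name STAR without a role or version. The scaling of ChIP to input, filters and read numbers are not given in the sources used here. The deposited tables name a hidden Markov model as the source of the states.

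The values were found to be a trailing mean of 3 entries, which places signal about 40 kb downstream. It was undone by differencing, with the start of each series set from the median of its chromosome. This was tested on simulated data. Noise comes from the median absolute difference of bins 3 apart, turned into the SD of 1 bin as for normally distributed values. A mean over several bins counts as 1 separate value per 3 bins. Domains are runs of adjacent associated bins. No wide entry, 0 in either line, lay in the windows.

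All members and the bins of each cluster are reported. In the flanks, the extremes and the nearest domains were named. Other flank bins and the shapes of profiles were chosen after their values were seen. The members, lists and rules were chosen with earlier results of these data known. The undone calls were added after seeing the data. Where a gene had several promoter entries, the first was used. Software was numpy 2.4.6, pandas 2.3.3 and matplotlib 3.10.9 under Python 3.11.15.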

Additional observations from a re-analysis of the deposited data

Results flagged for a closer look

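In the deposited values all bins of HOXB and of HOXC changed sign between the lines, from negative in LNCaP to positive in VCaP. The VCaP minus LNCaP difference of the cluster mean was 0.74 in HOXB (3 of 3 bins) and 0.55 in HOXC (4 of 4 bins). With 1 library pair per line the difference was not tested. The signs of the means stayed but the sizes shrank with another zero point. With the median of chromosome 17 subtracted, HOXB was at -0.16 in LNCaP and 0.06 in VCaP. With that of chromosome 12 subtracted, HOXC was at -0.24 and 0.09. Both VCaP means then lay within their noise SDs, 0.23 for HOXB and 0.20 for HOXC. The HOXC bin from 54400001, at 0.18 in VCaP, was also under the VCaP genome median of 0.19.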

How the results depend on the processing

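No paired analysis was possible because the groups hold 1 library apiece. Of 184 alternatives over 40 results, 149 changed the value by less than the limit set for its kind, 34 moved it and 1 reversed it. That limit was the noise SD for log2 values, a factor of 1.5 for shares and counts of bins, and 40 kb for distances, which have no noise value. The change was under the noise SD in all 56 alternatives of the cluster minus flank differences. It was so in 47 of 48 of the cluster means and 22 of 24 of the cluster differences. The exceptions came from subtracting each chromosome's median. HOXB in VCaP fell to 0.061, and the difference between the lines fell to 0.22 in HOXB and 0.33 in HOXC. This put HOXB below HOXC and below HOXD at 0.30, by gaps smaller than the noise SD of each.

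The difference over a cluster with its flanks moved most. For HOXA it was 0.05 as reported and -0.090, -0.12 and -0.041 after subtracting the genome median, subtracting the chromosome median and quantile normalization, and -0.035 with flanks of 0.5 Mb. For HOXB it was 0.63, against 0.49, 0.11, 0.53 and 0.53 in that order. For HOXC it was 0.49, against 0.36, 0.27, 0.40 and 0.55. For HOXD it was -0.14, against -0.27, -0.26, -0.22 and -0.045, and flanks of 2 Mb turned it to 0.0062. Subtraction changes the zero point of a line and other flanks change the bins averaged, and beyond this construction the cause was not tested.

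Calling bins by enrichment over 0, in place of the states, gave 6.67% of cluster bins and 31.0% of flank bins in LNCaP and 61.5% of flank bins in VCaP. Enrichment over the genome median gave 6.67% and 18% in LNCaP. A running median of 5 bins over 0 gave 28.5% of flank bins in LNCaP and 61.5% in VCaP. It placed the nearest LNCaP domain at 30 kb from HOXA, 645 kb from HOXB, 510 kb from HOXC and 155 kb from HOXD, and the nearest VCaP domain at 0 kb from HOXA. With domains of at least 5 bins the VCaP distance was 3430 kb for HOXA and 1275 kb for HOXD, whose own domain has 4 bins. In the undone values, an alternative chosen after seeing the data, 2 HOXC bins were beyond noise, against 4. The cause was not tested. The depth of the libraries is unknown, so its limit cannot be given.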

Other observations

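VCaP was higher than LNCaP in 127 of the 200 flank bins, and parts of the flanks went against this, near the clusters as well as far from them. Around HOXD VCaP was higher in only 10 of 50 flank bins. Below HOXB, from 46320001 to 46520000, it was lower in every bin, with differences of -0.03 to -0.26. Above HOXC, from 55160001 to 55360000, VCaP was lower than LNCaP in all 5 bins, with differences of -0.24 to -0.38, each within 2 noise SDs of a bin, and VCaP reached its lowest value of that window, -0.57. At the outer end of the same flank both lines rose to 0.27 and 0.28, and LNCaP entered a domain there. Above HOXD, from 177720001 to 178000000, LNCaP was above 0 in all 7 bins and VCaP below 0 in all 7, with 3 bins beyond noise, and neither line was in the associated state. These stretches were chosen after their values were seen.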
